A study of Mus musculus with 2 samples.

Results

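The genes that encode the proteasome were examined for open chromatin in CFU-E of the mouse, the progenitors that need erythropoietin and give rise only to red cells. The assay was ATAC-seq, which marks open chromatin because the Tn5 transposase inserts sequencing adapters into DNA that nucleosomes leave free. Members were all protein-coding genes whose symbol starts with Psma, Psmb, Psmc, Psmd, Psme, Psmf or Psmg followed by a digit, which gave 50 of 21911 protein-coding genes. By known role, 31 are constitutive subunits, 5 are immune or interferon-inducible, 2 are restricted to testis or thymus, and 12 are chaperones, other activators, an inhibitor or genes that share only the name. The cells were primary erythroid progenitors from adult male C57BL/6J mice of 5-6 weeks, with no treatment named. The 2 libraries of 50000 cells each, replicates 1 and 2, came from separate biosamples but carry 1 donor identifier. They form 1 group, so there was no comparison between conditions and no test across replicates. Peak lists do not show how deeply each library was sequenced.

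The proteasome is the protease complex that degrades proteins tagged with ubiquitin. Its 20S core is a barrel of outer alpha rings and inner beta rings, and the beta rings hold the proteolytic sites. The 19S regulator caps the barrel: a ring of ATPases unfolds the substrate, and non-ATPase subunits bind and remove ubiquitin. Cells exposed to interferon exchange the catalytic beta subunits for immune ones, which changes the peptides made for MHC class I, and thymic epithelium and male germ cells have variants of their own. Red cell precursors remove a large part of their proteome as they mature, and the ubiquitin-proteasome system takes part in this.

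An accessible promoter was taken to be an accessible region, any base of which lay 1 kb or less from an annotated start of the gene. The region of a gene is its strongest one by fold over local background, a value computed by the authors. Each list has its own scale of fold, so values are ranked only within a list. Regions came from the list of both replicates thresholded on IDR, the irreproducible discovery rate, which scores how well peaks repeat.

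A few upstream sequences show what lies at these promoters. Each runs from 5′ to 3′ on the strand of the gene (mm10), ends just before the annotated start nearest the strongest summit, or before the gene's 5′ end where there is no region, and avoids annotated exons. Capitals mark the ETS motif CCGGAAG, the antioxidant response element (ARE) TGACNNNGC, the interferon regulatory factor (IRF) motif GAAANNGAA, the cyclic AMP response element (CRE) TGACGTCA and the GATA motif AGATAA, on either strand. The first set pairs catalytic subunits of the constitutive core with their specialised counterparts. Psmb7 and Psmb9 are not shown, because the bases just before their starts lie in annotated exons.
Psmb6 (chr11:70525247-70525366): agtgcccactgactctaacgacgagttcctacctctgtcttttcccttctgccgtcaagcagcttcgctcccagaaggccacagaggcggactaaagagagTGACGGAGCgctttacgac
Psmb5 (chr14:54618023-54618142): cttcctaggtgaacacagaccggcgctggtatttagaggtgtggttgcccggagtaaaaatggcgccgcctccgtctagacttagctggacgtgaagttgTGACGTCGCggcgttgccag
Psmb8 (chr17:34197601-34197720): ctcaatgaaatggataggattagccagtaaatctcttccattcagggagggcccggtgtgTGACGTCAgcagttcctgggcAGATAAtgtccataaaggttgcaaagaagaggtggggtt
Psmb11 (chr14:54621313-54621432): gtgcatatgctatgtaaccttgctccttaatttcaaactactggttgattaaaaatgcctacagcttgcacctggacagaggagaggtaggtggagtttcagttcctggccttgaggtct
Psmb10 (chr8:105937039-105937158): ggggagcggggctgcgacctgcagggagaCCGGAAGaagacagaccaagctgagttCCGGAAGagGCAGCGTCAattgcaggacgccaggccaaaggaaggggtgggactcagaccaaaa
The second set comes from the 19S regulator, whose promoters held the strongest regions by fold among the members.
Psmd11 (chr11:80428495-80428614): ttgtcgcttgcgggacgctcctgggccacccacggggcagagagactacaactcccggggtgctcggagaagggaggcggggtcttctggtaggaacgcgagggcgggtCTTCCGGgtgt
Psmd7 (chr8:107588465-107588584): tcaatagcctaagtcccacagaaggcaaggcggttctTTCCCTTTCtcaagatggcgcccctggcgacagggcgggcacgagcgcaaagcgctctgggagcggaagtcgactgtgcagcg
Psmd2 (chr16:20651532-20651651): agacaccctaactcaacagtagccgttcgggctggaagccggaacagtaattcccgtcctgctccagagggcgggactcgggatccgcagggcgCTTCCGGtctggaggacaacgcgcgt
Psmd4 (chr3:95042615-95042734): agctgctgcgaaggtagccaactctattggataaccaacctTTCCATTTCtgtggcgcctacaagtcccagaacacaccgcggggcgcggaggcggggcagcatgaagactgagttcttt

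Of the 50 members, 46 had an accessible promoter, or 92.0% (95% Clopper-Pearson interval 80.8 to 97.8), where 45.8% of all protein-coding genes had one. The same 46 genes had one in the list of replicate 1 alone, where the background was 43.5%, and in that of replicate 2 alone, where it was 42.6%. The 4 without a region in any of the 3 lists were the immune subunit Psmb8, the thymus subunit Psmb11, the testis subunit Psma8 and Psme2b, a copy of the activator gene Psme2. By role, 31 of 31 constitutive subunits had a region (88.8 to 100%), as had 4 of 5 immune and interferon-inducible members (28.4 to 99.5%) and 0 of 2 testis or thymus subunits, which allows a share of up to 84.2%. These intervals cover counting over genes only.

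The constitutive regions were also strong within the list. Their median fold was 13.0, from 9.65 at Psmd3 to 17.5 at Psmd11, against a median of 10.7 over all 10037 genes with a region. Of the 31 constitutive genes, 25 lay above the median of those genes. Their median rank was the percentile 75.1 (95% interval of the median 56.0 to 87.0), and it was 73.4 in replicate 1 and 73.5 in replicate 2.

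**Figure D1:**
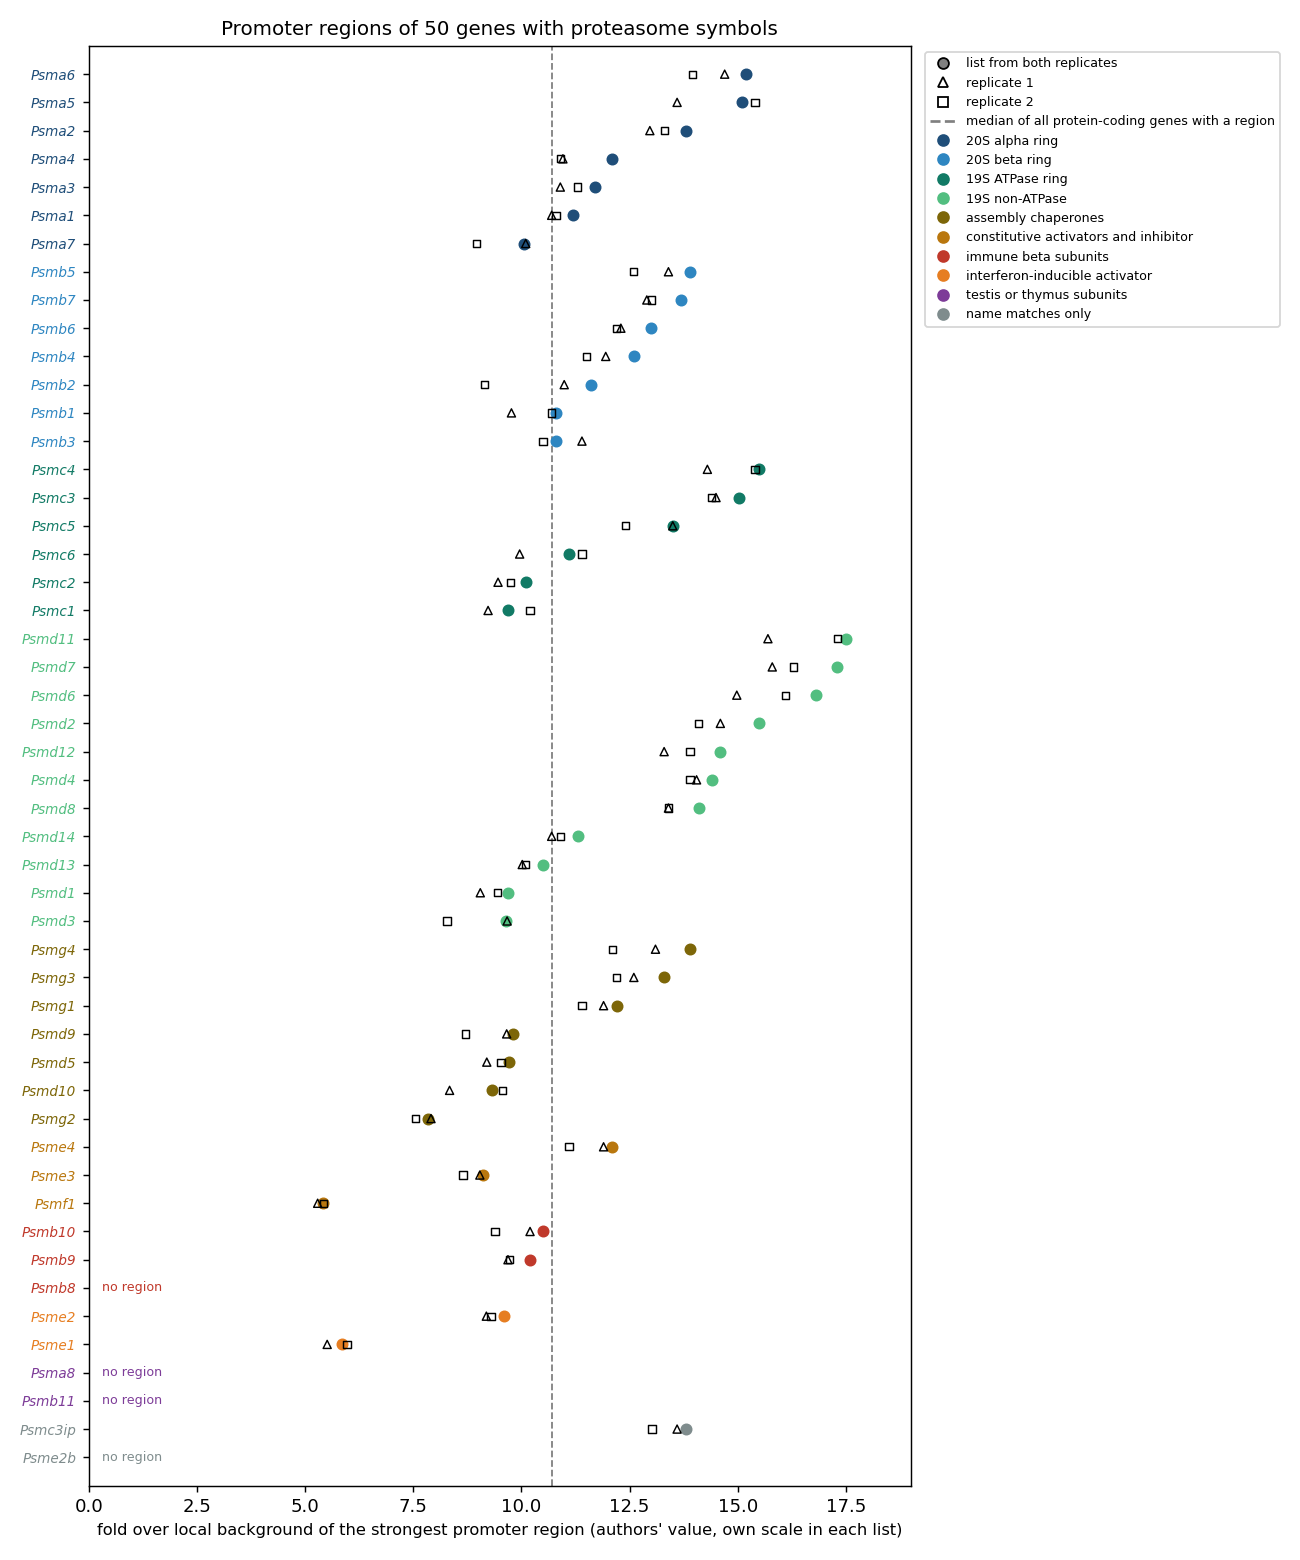
Fold over local background of the strongest promoter region (x axis) for each of the 50 genes (y axis), coloured by role and ordered by fold within a role; filled circles are the list of both replicates, triangles replicate 1 and squares replicate 2, and the dashed line is the median of 10.7 over all protein-coding genes with a region. The non-ATPase subunits of the 19S reach furthest right, and 4 genes have no region.

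All 7 alpha subunits, which form the outer rings and the gate of the core, had a region, with a median fold of 12.1. Psma6 was highest at a fold of 15.2 in the joint list, 14.7 in replicate 1 and 14.0 in replicate 2. Psma5 followed at 15.1, 13.6 and 15.4, and Psma2 at 13.8, 13.0 and 13.3. The order of the first pair was thus not the same in the 2 replicates. Psma7 was lowest at 10.05, 10.1 and 8.96, below Psma1 at 11.2, 10.7 and 10.8. For Psma6, the region lies 14556 bp downstream of the gene's annotated 5′ end, at a start of shorter transcripts (chr12:55398775).

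All 7 constitutive beta subunits had a region, and their folds covered a narrow range of 10.8 to 13.9 with a median of 12.6. The catalytic subunits took the first 3 places. Psmb5, which cuts after hydrophobic residues, had a fold of 13.9 in the joint list, 13.4 in replicate 1 and 12.6 in replicate 2. Psmb7, with trypsin-like activity, had 13.7, 12.9 and 13.0, and Psmb6, with caspase-like activity, had 13.0, 12.3 and 12.2. The non-catalytic Psmb1 (10.8, 9.77 and 10.7) and Psmb3 (10.8, 11.4 and 10.5) were lowest. At Psmb1 the summit lies 1433 bp inside the annotated 5′ end, and a further region at that end had 9.71 in the joint list. Psmb2, also non-catalytic, differed most between the libraries among all members, with 10.99 in replicate 1 and 9.15 in replicate 2.

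The 6 ATPases of the 19S base, which unfold the substrate, ran from a fold of 9.68 to 15.5 with a median of 12.3. Psmc4 (15.5, with 14.3 in replicate 1 and 15.4 in replicate 2), Psmc3 (15.02, 14.5 and 14.4) and Psmc5 (13.5, 13.5 and 12.4) stood above Psmc2 (10.1, 9.46 and 9.75) and Psmc1 (9.68, 9.23 and 10.2). In both replicates every one of the first 3 exceeded both of the last 2. These genes were picked by fold in the joint list, which is made from the same replicates, so this order is not a separate check.

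The 11 non-ATPase subunits of the 19S had the highest median of any role, a fold of 14.4 at percentile 87.0. The 3 strongest member regions by fold were here. Psmd11, a lid subunit that holds the base and the core together, had 17.5 in the joint list, 15.7 in replicate 1 and 17.3 in replicate 2. Psmd7, partner of the deubiquitinase, had 17.3, 15.8 and 16.3, and Psmd6, another lid subunit, had 16.8, 14.98 and 16.1. The role was also the widest, because Psmd1, a large scaffold subunit, had 9.68, 9.05 and 9.44 and the lid subunit Psmd3 had 9.65, 9.67 and 8.28. The deubiquitinase itself, Psmd14, was at 11.3, and the ubiquitin receptor Psmd4 at 14.4. By −log10 p the order of members differed. Psma5 at 237 and Psmc3 at 223 were above Psmd11 at 217, while Psmd7 had 179 and Psmd6 158.

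The 7 assembly chaperones, which help to build the complex and are not part of the finished particle, all had a region but at a lower median fold of 9.80 (percentile 39.3). Those of the core split by gene. Psmg4 had 13.9 in the joint list, 13.1 in replicate 1 and 12.1 in replicate 2, Psmg3 had 13.3, 12.6 and 12.2, and Psmg1 had 12.2, 11.9 and 11.4, while Psmg2 was lowest of the role at 7.83, 7.91 and 7.56. The 3 chaperones of the 19S base were all under 10: Psmd9 at 9.80, Psmd5 at 9.71 and Psmd10 at 9.33. At Psmd9 and Psmd5 the summit lies 58812 and 4000 bp inside the annotated 5′ end, in a region that covers the RefSeq start. Of the other regulators, the nuclear activator Psme3 had 9.12, the large activator Psme4 had 12.1, and Psmf1, which encodes the inhibitor PI31, had the lowest fold of all members with a region, 5.42 in the joint list, 5.29 in replicate 1 and 5.43 in replicate 2. At Psmf1 the summit of that region lies 1190 bp inside the annotated 5′ end, and a further region of fold 5.00 has its summit at -48 bp from the RefSeq start, where minus is upstream.

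Core positions that exist in a constitutive and a specialised form allow a direct look at both. At the beta1 position, constitutive Psmb6 had a fold of 13.0 and immune Psmb9 10.2. At beta2, constitutive Psmb7 had 13.7 and immune Psmb10 10.5. At beta5, Psmb5 had 13.9, while immune Psmb8 and the thymus subunit Psmb11 had no region, and at alpha4 Psma7 had 10.05 and the testis subunit Psma8 none. At beta1 and beta2 the constitutive gene was also the higher by fold in each replicate. The lists of both replicates held no region at Psmb8, Psmb11 or Psma8. The joint list is made from these same replicates, so they are not a separate check of it. By −log10 p in the joint list, the values were 145 against 137 at beta1 and 141 against 130 at beta2.

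**Figure D2:**
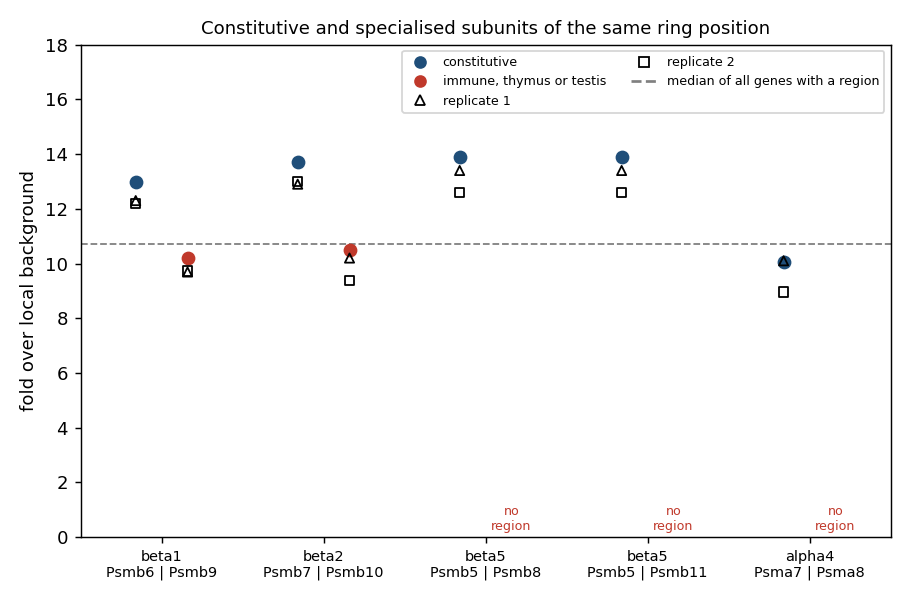
Fold over local background (y axis) of the constitutive subunit (blue, left) and the specialised subunit (red, right) at each ring position; filled circles are the joint list, triangles replicate 1 and squares replicate 2, and the dashed line is the median of all genes with a region. The constitutive member is higher at beta1 and beta2, and at beta5 and alpha4 the specialised member has no region in these lists.

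Psmb9 and Psmb8 lie together on chromosome 17 with Tap1 and Tap2, which encode the transporter that brings peptides to MHC class I. Psmb9 and Tap1 shared a single region (chr17:34187048-34187964), whose strongest summit was 20 bp from a start of Psmb9 and 168 bp from one of Tap1, so its fold of 10.2 cannot be assigned to either gene. Replicate 1 gave it 9.69 and replicate 2 gave 9.73. Psmb8 starts shortly beyond the end of Tap1, and its nearest region in the joint list was 5.00 kb away, near the start of Tap2 (fold 7.21). The less strict overlap list, where 52.1% of genes had an accessible promoter, held a weak region at Psmb8 (chr17:34197602-34197867) with a fold of 3.71, a −log10 p of 10.9 and its summit at -25 bp from the nearest annotated start and 44 bp inside the gene's 5′ end. It raised the members with a region to 47 of 50, and it was in neither replicate's own overlap list. The letters printed above for Psmb8 end before the 5′ end, so they fall almost wholly within the region but not over its summit.

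Psmb10, the third immune subunit, had 10.5 in the joint list, 10.2 in replicate 1 and 9.39 in replicate 2. The region (chr8:105936817-105937956) lies inside the gene: its summit is at -26 bp from a start of shorter transcripts and 1380 bp from the annotated 5′ end, which is not in a region. The PA28 activator genes, which interferon induces, lie close together on chromosome 14. Psme1 had 5.86, 5.51 and 5.97, the second lowest fold of the members. Psme2 had 9.59, 9.19 and 9.30, but the strongest summit of its region is 21 bp from the start of Rnf31, a ubiquitin ligase gene that points the other way, and 574 bp from that of Psme2. The summit nearest to Psme2, at -27 bp from its RefSeq start, had a fold of 7.19. All 4 immune and interferon-inducible genes with a region were below the median fold of 10.7. This depended on the measure. Ranked by −log10 p among all genes with a region, Psme1 was at percentile 9.69, Psmb10 at 50.97 and Psmb9 at 55.3. Psme2, whose region is shared with Rnf31, was at 81.7.

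Psma8 and Psmb11 had no region in the overlap list either. The nearest region to Psma8 was 22.8 kb away. For Psmb11 the nearest was 3.04 kb away and was the promoter region of its neighbour Psmb5 (chr14:54617242-54618390). These genes differed in base composition around the annotated 5′ end. The observed-to-expected ratio of CpG was 0.697 at Psma8, 0.688 at Psmb8, 0.387 at Psme2b and 0 at Psmb11, where the median was 0.802 over the 46 members with a region, 0.842 over all genes with one and 0.290 over all genes without. Psma8 and Psmb8 thus had CpG ratios nearer to those of genes with a region, and Psme2b and Psmb11 nearer to those without. Low ratios also occurred at members with a region, such as Psmf1 at 0.0701 and Psmd9 at 0.0846, whose regions lie inside the gene.

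Of the 2 members that share only the name, Psmc3ip, a meiotic recombination cofactor, had a region of fold 13.8, with 13.6 in replicate 1 and 13.0 in replicate 2. Psme2b had none, and its nearest region was 19.4 kb away. How reads from its sequence and that of Psme2 were assigned is not given in the sources used here, so its lack of a region is uncertain.

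The folds of the members were close in the 2 replicates. The ratio of fold in replicate 1 to that in replicate 2 had a median of 0.999 over the 46 members and ran from 0.872 at Psmd10 to 1.20 at Psmb2, with 23 of 46 higher in replicate 1. Ranks among all genes moved more at some members, as at Psmb2, from percentile 58.1 in replicate 1 to 34.5 in replicate 2. The central 95% of all genes covered 0.857 to 1.24, and 0 members fell outside it. The summits of the 2 libraries were a median of 8 bp apart, and more than 50 bp apart only at Psmb3 (65 bp) and Psmg2 (289 bp). Labels list a pair of instrument models for replicate 1 and none for replicate 2.

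**Figure D3:**
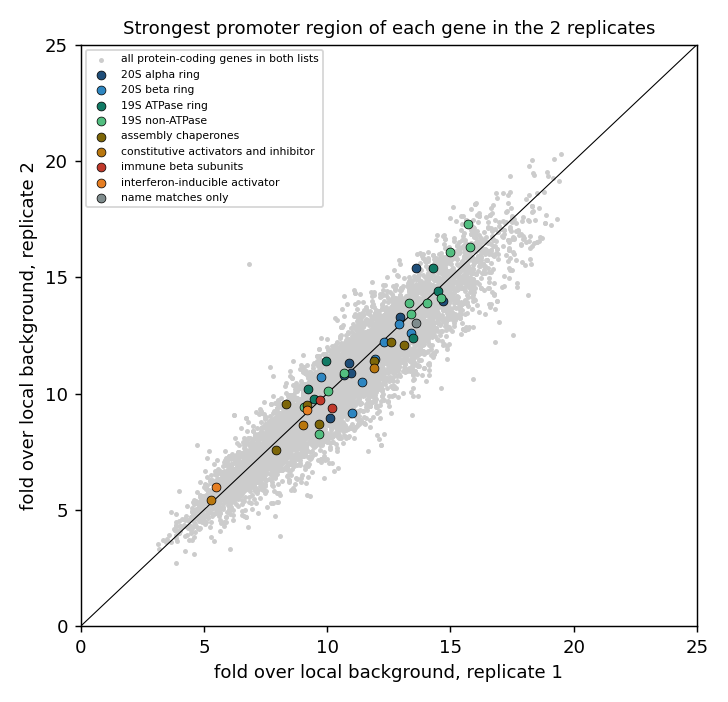
Fold over local background of each gene's strongest promoter region in replicate 1 (x axis) and replicate 2 (y axis), for all protein-coding genes with a region in both lists (grey) and for the members (coloured by role), with the line of equality. The 46 members lie along the line, inside the cloud of all genes.

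The member regions were somewhat wider than others and sat close to starts. Their median width was 1034 bp, from 360 bp at Psmc2 to 1371 bp at Psme3, against 942 bp for all genes with a region. More than 1 summit was present in 44 of 46 (95.7%, against 82.6%). The strongest summit was within 100 bp of an annotated start in 41 of 46 (89.1%, against 67.4%). With only the 1 start that RefSeq gives per gene, known for 42 members, 28 of the 38 with a region had the summit within 100 bp (73.7%, against 60.9%), and 37 of 42 starts lay inside a region (88.1%, against 42.8%). The starts not inside one were those of Psma6, Psmb10, Psmb11, Psmb8 and Psme2b.

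**Figure D4:**
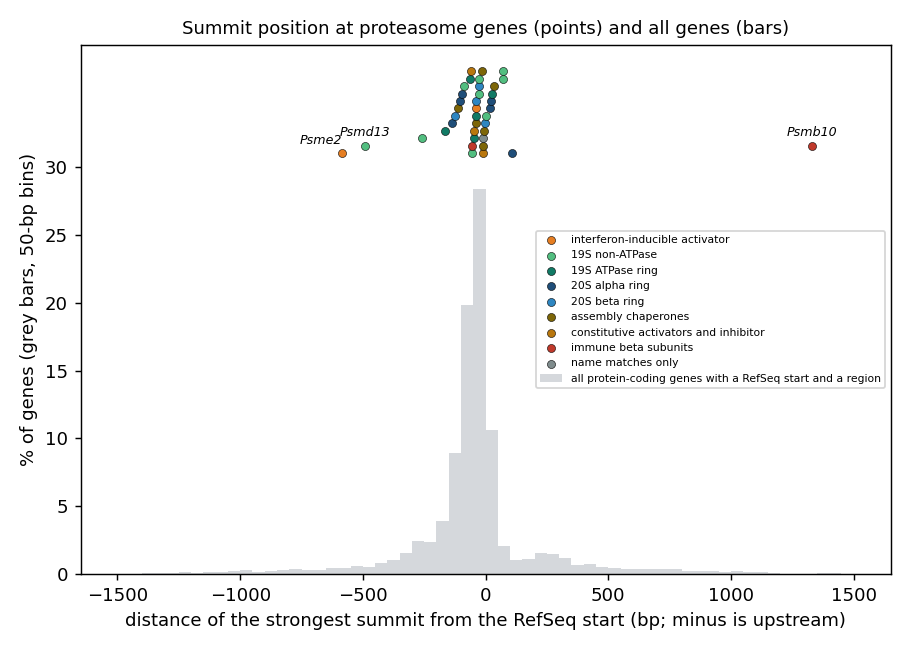
Distance of the strongest summit from the RefSeq start (x axis, bp, minus is upstream) for all genes with a region (grey bars, % of genes in bins of 50 bp) and for members (points coloured by role, stacked only for legibility). Most members lie within the central peak, and Psme2, Psmd13 and Psmb10 lie farthest out.

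Several members face another coding gene. At 8 of the 46 members with a region, such a gene on the opposite strand had its 5′ end within 1 kb upstream of the member's 5′ end. The share was 17.4%, against 13.5% of all genes with a region. Only the outermost 5′ ends were compared, so genes that overlap there, such as Psmb9 and Tap1, were not counted. The partners were Mrpl32 at Psma2 (75 bp between the 5′ ends), Ss18l1 at Psma7 (76 bp), Tbp at Psmb1 (137 bp), Dnajc2 at Psmc2 (32 bp), Ftsj3 at Psmc5 (75 bp), Atg4a at Psmd10 (179 bp), Cep76 at Psmg2 (263 bp) and Rnf31 at Psme2 (595 bp). The share of member regions that also covered a start of another coding gene was 23.9%, against 25.1% over all genes with a region. At 5 members the other gene's start was nearer to the summit: Psma2, Psmc2, Psmd10, Psmd13, whose region is shared with Sirt3, and Psme2. The fold at a gene that shares its region describes the shared region. The strongest region of Psmb1 was not shared, and the one at the 5′ end that faces Tbp had a fold of 9.71.

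Short motifs were counted on either strand within 100 bp of the strongest summit of the 46 member regions and of the 8827 distinct promoter regions of all genes. The ETS motif CCGGAAG was present in 41.3% of member regions (27.0 to 56.8), against 18.8% of all. Of the 17 constitutive 19S subunits 11 carried it (64.7%, 38.3 to 85.8), and of the 14 constitutive 20S subunits 2 did, Psma6 and Psmb7 (14.3%, 1.78 to 42.8). The intervals overlap and the difference was not tested. Within 50 bp of the summit the counts were 5 of 17 (29.4%, 10.3 to 55.96) and 1 of 14 (7.14%, 0.181 to 33.9). Both intervals included the 12.8% of all regions with the motif in that window. The 19S carriers were Psmc1, Psmc2, Psmc3, Psmc6, Psmd2, Psmd4, Psmd6, Psmd7, Psmd11, Psmd12 and Psmd14. In the printed sequences it stands just before the start of Psmd11 and Psmd2, and farther upstream in the immune Psmb10. Constitutive genes with the motif had a median fold of 14.6 (n = 13) and those without it 11.9 (n = 18), and over all genes the medians were 11.8 and 10.4. The ranges of the constitutive genes overlapped almost wholly, from 9.68 to 17.5 and from 9.65 to 15.5.

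The ARE, which NFE2L1, the activator of proteasome genes under proteasome inhibition, binds with small MAF proteins, was present in 17.4% of member regions (7.82 to 31.4) against 11.9% of all, a share inside the interval. The carriers were Psma3, Psmb2, Psmb5, Psmb6, Psmb10, Psmc6, Psmd9 and Psme4. These include 4 of 14 constitutive subunits of the 20S (28.6%, 8.39 to 58.1) and 1 of 17 of the 19S (5.88%, 0.149 to 28.7). The 2 intervals overlap and both include 11.9%, and the difference was not tested. In the printed sequences it lies close to the start in both Psmb5 and Psmb6, and its first base is at -55 bp in the immune Psmb10. The IRF motif was present in 13.0% (4.94 to 26.3) against 3.38%, at Psmb3, Psmb4, Psmd4, Psmd7, Psmg4 and, of the interferon-inducible genes, Psme1. In the 300 bases around RefSeq starts, the ETS motif was in 33.3% of members (19.6 to 49.5) against 12.3% of all promoters. There the IRF motif was in 14.3% (5.43 to 28.5) against 8.35%, and the ARE in 14.3% (5.43 to 28.5) against 13.3%, so both intervals included the share of all promoters.

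The other motifs also had shares whose intervals included that of all regions, as for the ARE. These were the CCAAT box CCAAT at 32.6% against 36.0%, the GC box GGGCGG at 58.7% against 64.4%, the NRF1 motif GCATGCGC at 6.52% against 5.25%, the YY1 motif AAGATGGC at 8.70% against 4.85%, the E-box CACGTG at 8.70% against 8.28%, the STAT motif TTCNNNGAA at 6.52% against 3.68% and the CRE at 2.17% against 3.84%. Of the motifs of erythroid factors, the GATA motif was in 1 member region, that of Psmd3 (2.17%, against 4.40%), and the CACCC box CCACACCC of KLF1 in none (up to 7.71%, against 3.36%). A match describes letters and is not a measurement of binding, and 12 motifs were searched.

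**Figure D5:**
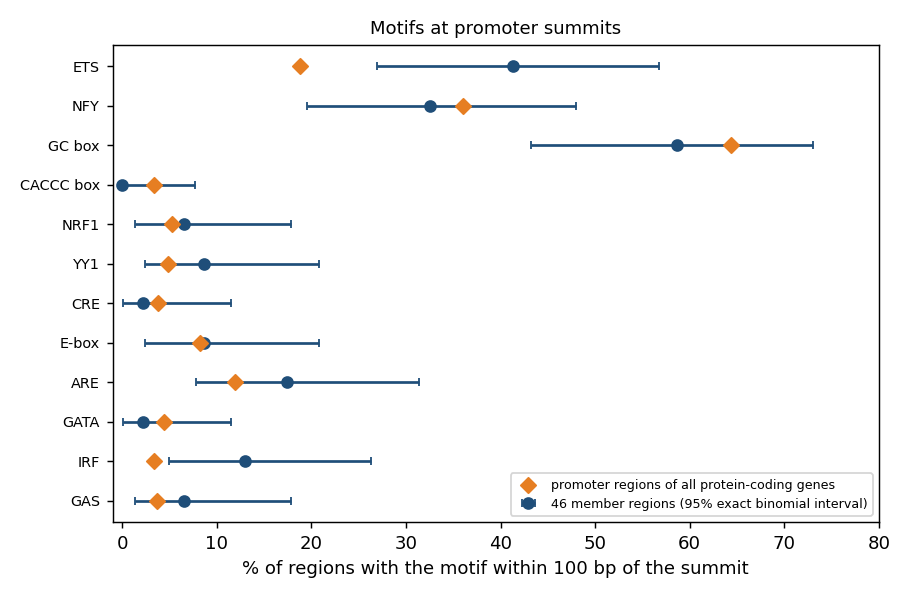
Share of promoter regions with each of 12 motifs within 100 bp of the summit (x axis, %), for the 46 member regions (circles, bars are 95% Clopper-Pearson intervals) and for the promoter regions of all protein-coding genes (diamonds). The ETS and IRF shares of the members have intervals above the diamond, 27.0 to 56.8 against 18.8 and 4.94 to 26.3 against 3.38.

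Distal regions, with a midpoint over 1 kb from any start, were found at a minority of members in the joint list. In the sequence nearest to its own starts, up to 100 kb away, a member had at least 1 distal region in 16 of 50 cases (32.0%), where 25.9% of all genes had one. In the conservative list it was 21 of 50 (42.0%), where 25.97% of all genes had one. The joint list held 26 such regions, with 4 at Psmd9, 3 at Psmd4 and 3 at Psmd7. A region at Psmd5 and 1 of those at Psmd9 reach within 1 kb of a start, so they also counted as promoter regions. Without them 15 members had a distal region (30.0%, against 24.97% of all genes). The strongest was 12.5 kb from Psmb9 (chr17:34170609-34171434) with a fold of 10.2, and it was in the lists of both replicates. The next was 1.41 kb from a start of Psmc2, inside the gene, with a fold of 9.59.

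Genes that work with the proteasome had accessible promoters too. Of 43 such genes in 5 lists, 42 had a region, where 45.8% of all protein-coding genes had one. All 11 proteasome-associated proteins did, led by Akirin2, which brings proteasomes into the nucleus (fold 14.4), and Txnl1, a thioredoxin that binds the particle (14.0). All 6 regulators of proteasome gene expression did, led by Vcp, the ATPase that extracts proteins for degradation (11.2), and Nfe2l1 (10.6). Of the 10 ubiquitin genes and shuttles, all did, with Uba1, the main ubiquitin-activating enzyme, at 12.3 and Ubqln2, a shuttle, at 11.9. In the MHC class I list 7 of 8 did, with H2-D1 at 11.8 and Tap1 at 10.2, and Nlrc5, the activator of MHC class I genes, had a region in the overlap list alone (5.33). All 8 interferon signalling genes did, led by the receptor gene Ifnar1 (14.0) and Stat2 (13.3), although Irf1 (4.93) was in neither replicate's list.

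Markers of cell types bear on the label of the cells. All 9 erythroid markers had a promoter region (66.4 to 100%), 8 of them in each replicate, where 45.8% of all protein-coding genes had one. Of 8 lymphoid markers 0 had one, which allows a share of up to 36.9%. Of 6 macrophage and dendritic markers 0 had one, which allows up to 45.9% and so includes the share of all genes. Of 5 thymic epithelium markers 1 had a region, Ly75 (0.505 to 71.6%), and of 6 germ cell markers 1 did, Dazl (0.421 to 64.1%). Both of these intervals also include the share of all genes.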

How the data were processed

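ATAC-seq was measured in 1 group of 2 libraries. The deposited peak lists, called by the authors on mm10 for each replicate and for both, give each peak a fold over local background (a ratio), −log10 p and q values and a score (lowest 540 in the thresholded lists), per the file headers and listing. For the aligner, peak caller, versions and Tn5 offsets: not given in the sources used here. Overlapping or touching records were merged into regions, 24394 in the joint list, 18685 in replicate 1 and 17854 in replicate 2. Starts came from GENCODE M21 on GRCm38.p6, and sequences from that genome, with RefSeq promoters matched to 42 of 50 members. Members, lists and motifs were chosen with earlier results of these data known. Roles were assigned from general knowledge. Intervals are Clopper-Pearson at 95%, and for medians of ranks from order statistics. Depth is unknown, so they cover counting error only. Named genes were all immune, interferon-inducible and testis or thymus members, all without a region, those that share only the name, and in other roles the 3 highest and 2 lowest by fold; of each related list, the 2 highest and those without a region. Other genes named, among them Psmd4, Psmd14, the remaining chaperones and those given with a motif, a distance or a spread between libraries, were chosen after their values were seen. Paaf1 was not analysed here. The overlap search was tested on simulated regions. Python 3.11.15, NumPy 2.4.6, SciPy 1.17.1 and pysam 0.24.0 were used.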

Additional observations from a re-analysis of the deposited data

How the results depend on the processing

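The counts of members, constitutive, immune and testis or thymus genes with an accessible promoter stayed within 1.5 times under the conservative, overlap and single-replicate lists, a 500 bp window, coding transcripts only and the upper 50% of regions by fold, which left out Psme1 and Psmf1. RefSeq starts, an alternative chosen after seeing the data, gave 38 of 42 members (90.5%, against 45.4% of all genes). Without replicate 1 and without replicate 2 there were 46 and 46 members, 31 and 31 constitutive, 4 and 4 immune and 0 and 0 testis or thymus genes with a region, 41 and 41 related genes, a median constitutive percentile of 73.5 and 73.4, and 12 and 13 members with a distal region. Of all genes, 17.4% had a distal region without replicate 1 and 18.6% without replicate 2, against 25.9% in the joint list. Members with a distal region rose from 16 in the joint list to 21 in the conservative list, where 25.9% and 25.97% of all genes had one. In the overlap list they were 25, where 42.9% of all genes had one. With 50 bp around the summit the ETS share was 26.1% against 12.8% (constitutive subunits 19.4%, down from 41.9%), the ARE share 8.70% against 6.79%, the IRF share 6.52% against 1.30%, YY1 2.17% and GATA 0%. No paired analysis was possible because there is 1 group and no test. The unknown depth limits what the lack of a region at Psmb8, Psmb11, Psma8 and Psme2b can show.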

Other observations

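Promoters of constitutive proteasome subunits had higher folds in the joint list than those of genes that mark the red cell lineage. The 31 constitutive subunits ran from 9.65 to 17.5 in the joint list. The 9 erythroid markers ran from 4.11 at Tal1 to 9.36 at Epor, the erythropoietin receptor gene, so the groups did not overlap there. In replicate 2 they did, with the lowest subunit at 8.28 and the highest marker at 9.04, and by −log10 p they also overlapped in the joint list (Epor 174, Nfe2 168 and Tfrc 163, against Psma4 95.6 and Psmc1 89.5). Gata1, which encodes the leading erythroid transcription factor, had 6.43, and Alas2, which encodes an erythroid enzyme that starts haem synthesis, had 4.79 and was in neither replicate's list. The median fold over all genes with a region, 10.7, was also above the highest marker, Epor, which was at percentile 34.7. The difference in the joint list was thus not particular to proteasome genes. The markers were chosen by name and the comparison was made after the values were seen, so it is a description of these lists.

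Dazl, an RNA-binding protein gene of germ cells, had a promoter region of fold 20.7, with 18.2 in replicate 1 and 19.8 in replicate 2. This was percentile 99.9 of all genes with a region, while the other 5 germ cell markers had none. Ly75 had a fold of 7.67 in the joint list and 7.81 in replicate 1, and no region in replicate 2. Pomp, the chaperone that matures the 20S core, had a fold of 7.08, percentile 14.3.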
